A study of Chlamydomonas reinhardtii with 15 samples.

Results

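PMA2 is the symbol of a plasma membrane proton pump of the green alga Chlamydomonas reinhardtii. Its members were the array probes of every transcript model that the study's gene tables name PMA2, matched by the model number in the probe name. These were 2 of the 14557 transcript models on the array, with 3 probes each, or 6 of the 43687 probes. PMA2-N stands below for the model named PMA2 in the study's table captioned nitrogen starvation, and PMA2-S for the model so named in its table captioned sulfur starvation. The captions appear exchanged: only the first names ARS1, ARS2, ECP76 and ECP88, and only the second names NIT1 and NII1. Below, nitrogen table and sulfur table refer to these captions, not to the starvation that the tables report. All 6 probes passed the filter on dim probes, which kept a probe where either channel stood well above background on 3 or more of the 15 arrays. PMA2-N was chosen on results of these arrays, namely its ratios in npq4, 4A+ and cc3491, so those values are a description and carry no test. Each ratio is formed from a starved and a 0 h level, so the levels and ranks of PMA2-N in these strains are a description too.

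Pumps of this kind are P-type ATPases. They split ATP in the cytosol and move protons out of the cell, and the proton gradient and membrane voltage that result drive many carriers that take up nutrients such as phosphate, ammonium and amino acids. Sulfur starvation is known in this alga to induce sulfate transporters and extracellular proteins poor in sulfur, and to slow growth.

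The study hybridised total RNA to 2-colour arrays. On each array the red channel held RNA of cells starved of sulfur in TAP medium without sulfate under constant light, and the green channel held RNA of the same strain at 0 h, from early stationary cultures before starvation. The strains were npq4, an insertional mutant with a knockout of LHCSR3.1 and LHCSR3.2 (3 arrays, at 24, 48 and 96 h), its wild-type control 4A+ (4 arrays), and the wild types cc3491 and cc125 (4 arrays each), the last 3 at 24, 48, 72 and 96 h. There was 1 array for each strain and time point, made from pooled samples, so the arrays of a strain served as replicates and mix time with array error. As labelled, the 0 h channel of a strain repeats 1 reference time on every array, so its spread should be mainly that of the arrays. The arrays labelled cc125 depart from this with some probes, as given below. Each strain was on 1 slide of its own, so slide and strain cannot be told apart.

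The name needs care. Of 45 models that both tables name, 18 have different symbols, and in all 18 the sulfur table's symbol is the later one in the alphabet. Of the rows with a number in place of a symbol, 79 of 263 in the sulfur table pair another model's number, against 0 of 559 in the nitrogen table. The symbol of PMA2-S is therefore less secure than that of PMA2-N. RefSeq places PMA2-N at locus CHLRE_10g459200v5 and PMA2-S at CHLRE_07g336950v5, without a symbol for either, in a build other than that of the array.

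The labels were checked on other genes first. LHCSR3, deleted in npq4, had no signal well above background on any npq4 array, in 3 of 3 probes and both channels. The same held for 1 of 3 probes in 4A+ and for 0 of 3 in cc3491 and in cc125. The sulfur starvation genes ARS1, ARS2, ECP76, ECP88 and LHCBM9 were higher in starved than in 0 h RNA in npq4, 4A+ and cc3491, with mean log2 ratios between 0.38 and 6.16. On the arrays labelled cc125 all 5 were below 0, between -5.58 and -0.03. Over all probes the cc125 means correlated at r = -0.42 with npq4, -0.34 with 4A+ and -0.49 with cc3491, and the 4 file headers of cc125 name another slide than the labels do. The direction of the cc125 ratios is therefore not settled, and they are given as labelled and with the sign turned. The number of probes well above background in the starved channel was 14356 to 19472 on npq4 arrays, 8729 to 12424 on 4A+ arrays, 20957 to 26297 on cc3491 arrays and 23719 to 26604 on cc125 arrays, so 4A+ arrays were the dimmest.

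The log2 ratio of PMA2-N was below 0 in npq4, 4A+ and cc3491, at every time point and with every probe. In 4A+ only probe 1 measured this fall. The model mean of the log2 ratio (starved over 0 h, loess within each array) was -2.70 ± 0.32 in npq4 (SD, n = 3), -0.75 ± 0.19 in 4A+ (SD, n = 4) and -3.40 ± 0.23 in cc3491 (SD, n = 4). In cc3491 only 3 of 13465 tested models had a lower mean, in npq4 26 and in 4A+ 803. The mean and rank in 4A+ rest partly on probes 2 and 3, which had no starved signal well above background there, and probe 1 alone averaged -1.81. As a background, 1.2% of tested models were called lower in npq4, 2.24% in 4A+ and 1.87% in cc3491, where called means a Holm adjusted p below 0.05 in limma and at least a 2-fold change.

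Probe 1 gave the brightest and most complete record, with a signal well above background in both channels of all 15 arrays. Its log2 ratio in npq4 was -2.92, -2.52 and -3.22 at 24, 48 and 96 h. In 4A+ it was -1.80, -2.17, -2.07 and -1.21 at 24, 48, 72 and 96 h. In cc3491 it was -3.27, -2.79, -2.69 and -2.84 at the same times. Every npq4 value lay below every 4A+ value, and the npq4 and cc3491 values overlapped. The 0 h spot of cc3491 was saturated on the 24 h array, so that ratio understates the difference.

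Probes 2 and 3 showed the same direction with different sizes. In npq4 probe 2 read -3.16, -2.56 and -2.27, and probe 3 read -3.10, -2.33 and -2.19. In cc3491 probe 2 ran between -3.39 and -3.04, and probe 3 between -4.64 and -3.63. In 4A+ probe 2 ran between -0.49 and -0.16 and probe 3 between -0.26 and -0.09, but neither was well above background in the starved channel on any of the 4 arrays. So neither probe measures a fall in 4A+: the 0 h readings averaged 1.22-fold the starved readings with probe 2 and 1.13-fold with probe 3. For probe 3 at 24 h the net intensity was 27 starved and 26 at 0 h.

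**Figure D1:**
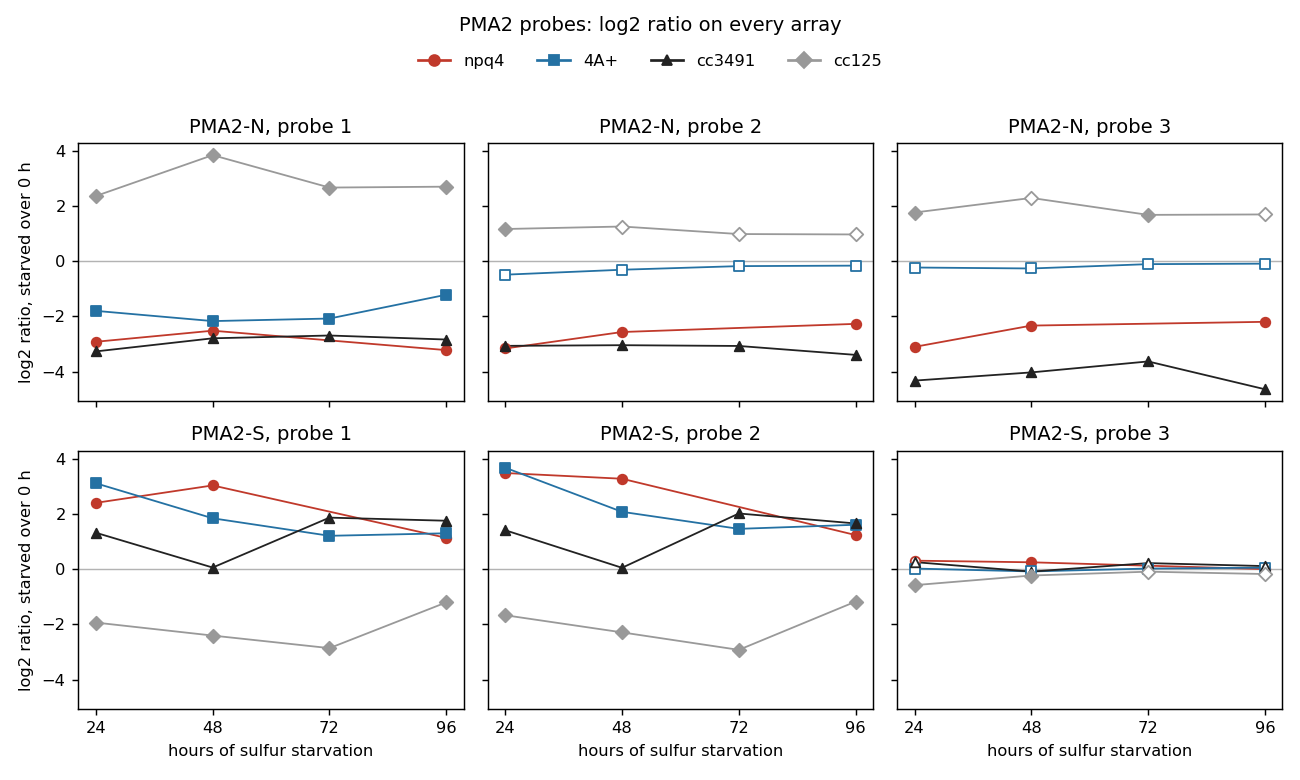
Log2 ratio of starved over 0 h RNA (y axis) against hours of sulfur starvation (x axis) for each probe of PMA2-N (top) and PMA2-S (bottom), 1 point per array, joined within a strain (npq4 has no 72 h array here); open points had at least 1 channel not well above background. Probe 1 of PMA2-N lies between -3.27 and -1.21 in npq4, 4A+ and cc3491 and between 2.36 and 3.84 on the arrays labelled cc125, and probe 3 of PMA2-S stays near 0 in npq4, 4A+ and cc3491.

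The levels behind these ratios separated the strains before starvation. The 0 h log2 level of probe 1 (after loess and Aquantile scaling) was 14.37, 14.28 and 14.42 on the npq4 arrays and 11.39, 11.31, 11.26 and 11.26 on the 4A+ arrays. The groups did not overlap, and the means differed by 3.05, or 8.29-fold. How many of all probes also separate these strains without overlap was not counted. Lack of overlap is therefore only a description here and below. With probe 2 the 0 h level was 6.23-fold and with probe 3 5.15-fold higher in npq4 than in 4A+, again without overlap. Among 13465 models only 16 had a larger excess of npq4 over 4A+ at 0 h than PMA2-N, whose model mean was 2.69 higher on the log2 scale. The ratios that chose the gene contain this 0 h level, so the rank is not separate evidence.

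The wild type cc3491 also had a higher 0 h level than 4A+. Its 0 h level was 22.6-fold that of 4A+ with probe 2 and 17.9-fold with probe 3, with no overlap of arrays. These folds rest on the same dim 4A+ signals, so their size depends on the offset as well. With probe 1 it was 9.11-fold, which a saturated spot on 1 of the 4 cc3491 arrays makes too low. Between npq4 and cc3491 the 0 h means of probe 1 were 14.36 ± 0.07 (SD, n = 3) and 14.49 ± 0.07 (SD, n = 4), and the arrays did not overlap. Lack of overlap thus came with a difference of only -0.14. Probes 2 and 3 read lower in npq4 than in cc3491, with differences of -1.86 and -1.80 on the log2 scale. The distance of npq4 from cc3491 turned on the scaling: for probes 1, 2 and 3 it was -0.98, -2.51 and -2.40 with each channel set on its own 75th percentile and -1.81, -3.34 and -3.22 with no scaling between arrays. Under all 3 scalings 4A+, the direct control of the mutant, had the lowest 0 h level of these 3 strains with every probe, and cc3491 the highest.

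The direction of the 0 h difference between npq4 and 4A+ did not rest on the scaling. With each channel set only on its own 75th percentile, the npq4 excess over 4A+ at 0 h was 8.63-fold, 5.46-fold and 4.88-fold for probes 1, 2 and 3. With no scaling between arrays it was 12.8-fold, 8.07-fold and 7.21-fold. All of these scalings keep the offset, so the folds of probes 2 and 3 depend on it in each. The raw spots showed the difference directly: the background-subtracted 0 h intensity of probe 1 was 19590, 16505.5 and 14910 on npq4 arrays, against 1510.5, 1372, 1085 and 1176.5 on 4A+ arrays. No array of either strain overlapped under any of these scalings.

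**Figure D2:**
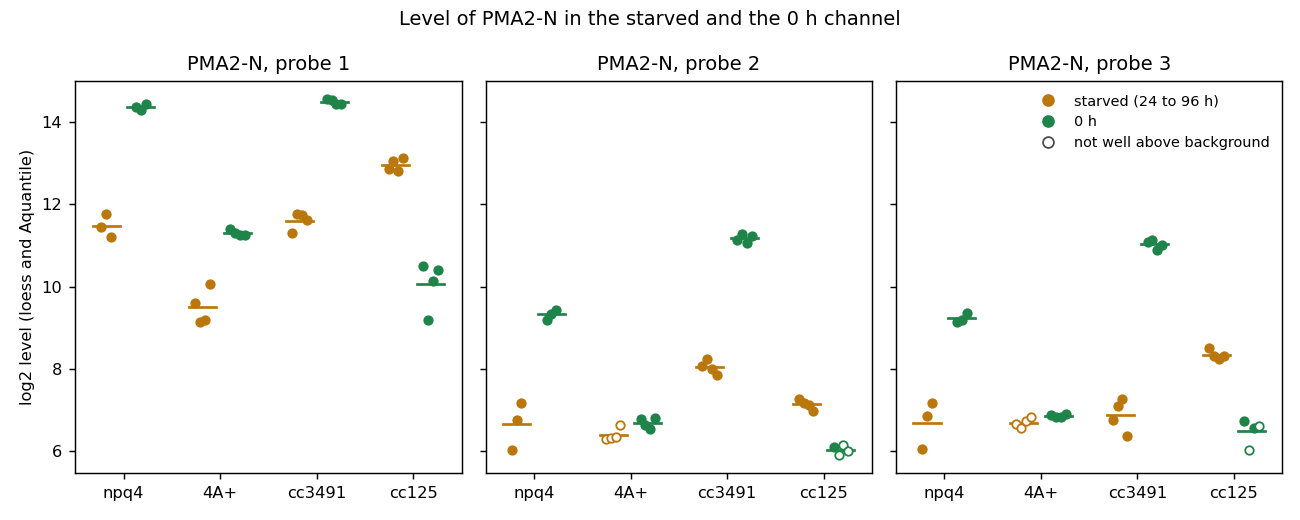
Log2 level of PMA2-N (y axis, after loess and Aquantile) in each strain and probe, with the starved channel left of the 0 h channel, 1 point per array and a bar at the mean; open points were not well above background. At 0 h probe 1 averages 14.36 in npq4, 11.31 in 4A+ and 14.49 in cc3491.

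**Figure D3:**
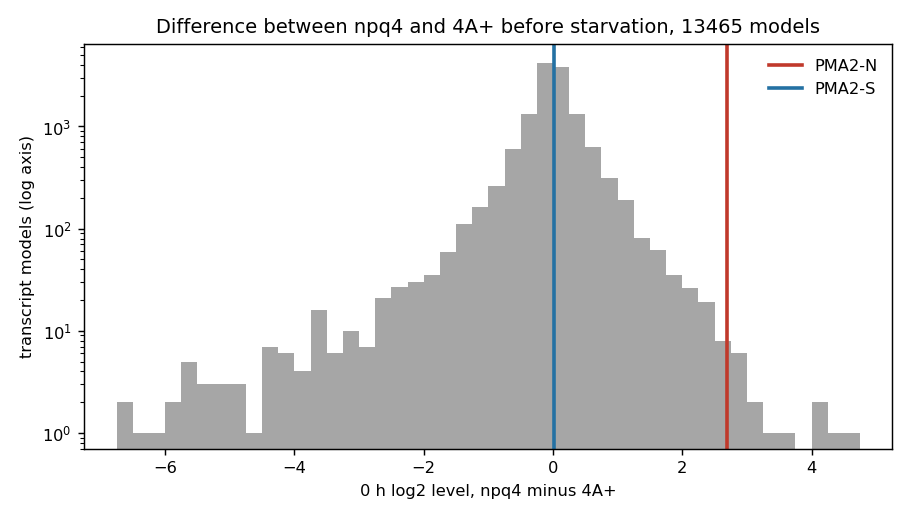
Number of tested transcript models (y axis, log scale) by the difference in 0 h log2 level between npq4 and 4A+ (x axis, bins of 0.25), with lines at the 2 models named PMA2. PMA2-N lies at 2.69, with 16 models above it, and PMA2-S at 0.01.

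In starved cells probe 1 still separated npq4 from 4A+. The starved level of probe 1 was 11.45, 11.77 and 11.20 on npq4 arrays and 9.60, 9.14, 9.18 and 10.05 on 4A+ arrays, which is 3.95-fold higher in npq4 without overlap. In cc3491 it was 11.29, 11.75, 11.74 and 11.61, overlapping with npq4. The sizes turned on the scaling: at the 75th percentile starved npq4 was 7.31-fold above 4A+ and differed from cc3491 by -1.09 on the log2 scale, and with no scaling the values were 13.1-fold and -1.88, without overlap in any of the 4. With probes 2 and 3 the starved levels of npq4 and 4A+ overlapped after loess and Aquantile, at means of 6.66 ± 0.57 and 6.40 ± 0.16 for probe 2 and of 6.69 ± 0.58 and 6.69 ± 0.11 for probe 3 (SD, n = 3 and 4), and the 4A+ values of both probes were not well above background. So the signal of PMA2-N before starvation was higher in npq4 than in 4A+ with 3 of 3 probes. Under starvation it was higher with the 1 probe that could measure it in both strains. Each strain was on 1 slide of its own, so slide and strain cannot be told apart in either comparison.

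The difference between npq4 and 4A+ in the ratio depended more on the processing than that in the 0 h level. The model means differed by -1.94, with 63 of 13465 models lower, and probes 1, 2 and 3 differed by -1.07, -2.38 and -2.37. The size of the last 2 values is not measured, since 4A+ had no starved level well above background there. Under the other ways of processing they ran from -2.34 to -1.57 for probe 2 and from -2.77 to -1.56 for probe 3. With probe 1 alone the result turned on the normalization: with median centring in place of loess its mean ratio was -3.00 in npq4 and -2.97 in 4A+, a difference of -0.027 with overlapping arrays. The unscaled net intensities of probe 1 gave 0 h over starved folds of 4.54 to 11.9 on npq4 arrays and 7.52 to 16.9 on 4A+ arrays, which also overlap. With normexp offset 0 probe 1 differed by -0.77 and the arrays overlapped, and with the scanner software's ratio it differed by -0.98 and they did not.

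**Figure D4:**
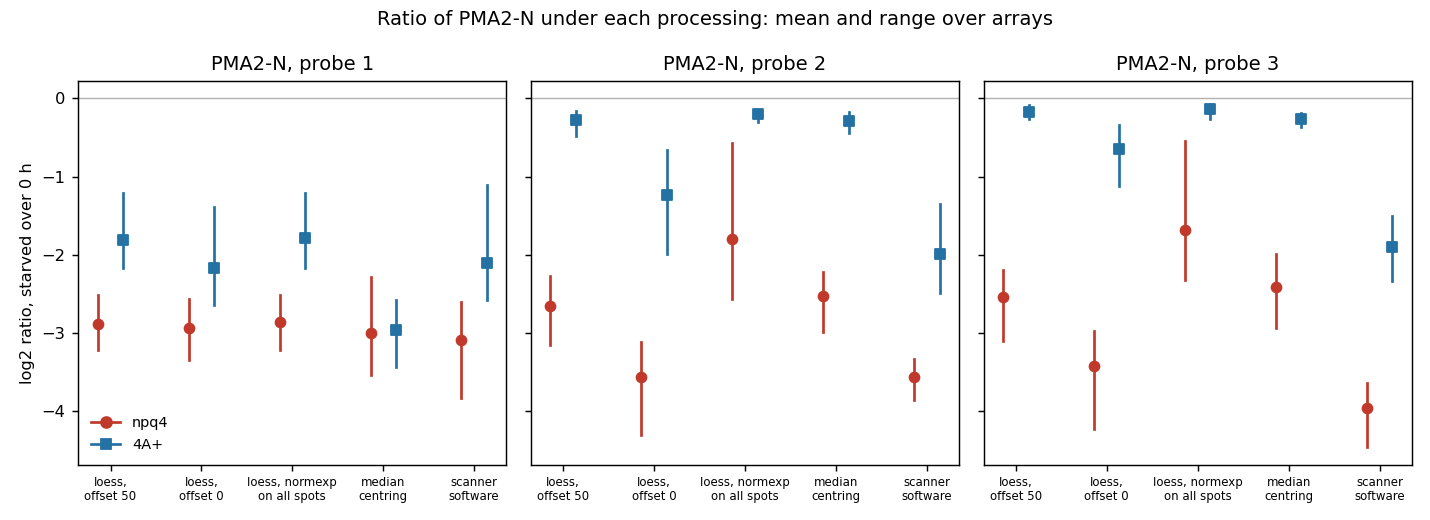
Log2 ratio of starved over 0 h RNA (y axis) of the 3 probes of PMA2-N in npq4 (left of each pair, 3 arrays) and 4A+ (right, 4 arrays) under 5 ways of processing (x axis), with points at the mean and lines from the lowest to the highest array. For probe 1 the strains coincide with median centring, at -3.00 and -2.97, while probes 2 and 3, which lack a measured starved level in 4A+, stay apart.

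The arrays labelled cc125 were not among the ratios that chose PMA2-N here, so a test is given. The study's table that names PMA2-N holds genes that responded to starvation, and the paper lists cc125 among its strains. Whether the cc125 arrays went into that table is not known, so the test may not be independent of the choice. As labelled, PMA2-N was higher in starved than in 0 h RNA of cc125, with a mean log2 ratio of 1.95 (SE 0.13, n = 4, positive on 4 of 4 arrays, Holm adjusted p = 2.40e-05 from limma), where 2.18% of models were called higher. All 3 probes were called higher, against 2.08% of the tested probes, at 2.89 (SE 0.21), 1.10 (SE 0.12) and 1.86 (SE 0.16). Probe 1 read 2.36, 3.84, 2.67 and 2.70 at 24, 48, 72 and 96 h, with starved levels of 12.86, 13.04, 12.81 and 13.11 and 0 h levels of 10.49, 9.20, 10.14 and 10.41. The SD of these levels was 0.60 at 0 h and 0.14 starved. In npq4, 4A+ and cc3491 it was the other way round, at 0.07, 0.06 and 0.07 at 0 h and 0.28, 0.42 and 0.21 starved. On the cc125 arrays probe 3 gave 0.31 at 0 h and 0.11 starved, and probe 2 gave 0.11 and 0.13. The 0 h channel was well above background on 1 of 4 arrays for probe 2 and 2 of 4 for probe 3. With the sign turned the model mean is -1.95, and the markers of sulfur starvation turn with it. As labelled it was 3.25 with normexp offset 0, 2.67 with median centring and 4.07 with the scanner software's ratio, so its size and its place among the strains turned on the processing.

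The slope of the PMA2-N ratio with hours of starvation is given as a description, since most of these values chose the gene. The slope over the 15 arrays, with strain fixed, was 0.05 per 24 h on the log2 scale (SE 0.06), and for the 3 probes it was 0.05, 0.05 and 0.04 (SE 0.10, 0.05 and 0.08). The low level was already present at 24 h, where the model mean was -3.06 in npq4, -0.84 in 4A+ and -3.55 in cc3491. At 96 h it was -2.56 in npq4, -0.49 in 4A+ and -3.62 in cc3491. No model of the 13465 (0%) passed Holm or Benjamini-Hochberg adjustment for the slope, and 551 (4.09%) had an unadjusted p below 0.05.

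PMA2-S behaved differently. With probes 1 and 2, both well above background in both channels of all arrays, its log2 ratio after loess was above 0 on every npq4, 4A+ and cc3491 array. Probe 1 read 2.40, 3.03 and 1.13 in npq4 at 24, 48 and 96 h. In 4A+ it read 3.11, 1.84, 1.21 and 1.30, and in cc3491 1.32, 0.06, 1.86 and 1.75 at 24, 48, 72 and 96 h. The values of the 3 strains overlapped, and the cc3491 array of 48 h was the only one close to 0. On that array the unscaled net log2 ratio was -0.30 with probe 1 and -0.33 with probe 2, so its sign turned on the scaling. Probe 2 gave 3.48, 3.27 and 1.23 in npq4, and its means were 2.66 ± 1.24 in npq4 (SD, n = 3), 2.20 ± 1.01 in 4A+ and 1.28 ± 0.86 in cc3491 (SD, n = 4 each).

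In no 4A+ array did probe 3 of PMA2-S stand well above background, in either channel, and among starved samples it passed on 1 of 3 npq4 arrays and 1 of 4 cc3491 arrays. Its ratios lay between -0.09 and 0.30 in these strains and pulled the model means toward 0. Those means were 1.68 (SE 0.33, n = 3) in npq4 and 1.36 (SE 0.29, n = 4) in 4A+. Neither was called with Holm adjustment (adjusted p = 1 each, limma), where 0.676% and 1.02% of models were called higher. With Benjamini-Hochberg adjustment both passed, at adjusted p = 0.00287 in npq4 and 0.00417 in 4A+ (limma), as did 3.76% of models higher in npq4 and 3.71% in 4A+ at a 2-fold change or more. The mean in cc3491 was 0.88 ± 0.61 (SD, n = 4), given as a description because the table that names the model is captioned sulfur starvation. That table names nitrogen genes such as NIT1 and NII1, so its link to these cc3491 arrays is not settled.

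Between npq4 and 4A+ no difference in the ratio of PMA2-S was detectable, and its 0 h levels with probes 1 and 2 overlapped, in contrast to those of PMA2-N. The ratio differed by 0.32 (SE 0.44, Holm adjusted p = 1, Benjamini-Hochberg adjusted p = 0.785, limma), a contrast in which 0.951% of models were called. The 0 h level of probe 1 was 9.52 ± 0.30 in npq4 (SD, n = 3) and 9.50 ± 0.17 in 4A+ (SD, n = 4), and that of probe 2 was 9.82 ± 0.22 and 9.91 ± 0.16 in the same order of strains. The model's 0 h level differed by 0.01, near the middle of all models. With median centring the ratio of probe 1 was 2.19 in npq4 and 0.69 in 4A+, against 2.19 and 1.86 with loess, so its size in 4A+ turned on the normalization. The model difference became 1.13 with median centring and 1.62 with median centring on probes 1 and 2 alone, and was called with neither. After loess and Aquantile the starved level of npq4 was 1.27-fold that of 4A+ with probe 1 and 1.29-fold with probe 2. At the 75th percentile these were 2.74-fold and 2.89-fold, and with no scaling 4.91-fold and 5.17-fold. The starved arrays overlapped under each of these.

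On the arrays labelled cc125 PMA2-S was lower in starved RNA as labelled, with a mean of -1.46 (SE 0.29, n = 4, negative on 4 of 4 arrays, Holm adjusted p = 1, Benjamini-Hochberg adjusted p = 0.00171, limma). By these rules 0.572% of models were called lower in cc125 with Holm and 2.55% with Benjamini-Hochberg adjustment. Probe 1 read -1.94, -2.41, -2.86 and -1.21 at 24, 48, 72 and 96 h. With the sign turned the mean is 1.46. With median centring the mean as labelled was -0.49, so its size turned on the normalization. At 96 h the unscaled net log2 ratio was 1.35 with probe 1 and 1.52 with probe 2, so the sign on that array turned on it too. Its slope with hours over all 15 arrays was -0.14 per 24 h (SE 0.13). After loess the cc125 means of both models had the opposite sign to those of the other 3 strains.

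No other plasma membrane proton pump, no vacuolar pump and no other P-type ATPase had a symbol in the study's tables, so PMA2-N and PMA2-S were the only pumps that could be read by name. Of 3 ATP synthase models, subunits of the enzyme that makes ATP from a proton gradient, 1 was called lower in npq4, 0 in 4A+ and 2 in cc3491, where 1.2%, 2.24% and 1.87% of all models in the same strains were called lower. This list and the carriers hold only models with a symbol in the study's tables of genes that responded to starvation, so their counts are drawn from genes picked for change. The median of the list was -1.26 in npq4, -0.47 in 4A+ and -2.14 in cc3491, beside medians within 0.01 of 0 over all models. Lowest by the mean over these 3 strains was ATPC (model 134235, ATPD in the sulfur table), at -2.21 ± 0.46 in npq4, -0.20 ± 0.47 in 4A+ and -2.14 ± 0.32 in cc3491. ATPD (132678) followed at -1.26 ± 0.35, -0.47 ± 0.11 and -2.48 ± 0.58 in the same strains, and the third, ATPC (148810), lay between -0.75 and -0.51. The symbols of 132678 and 148810 come only from the sulfur table, so they are less secure, like that of PMA2-S.

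The carriers, most of which take up ions or amino acids together with protons or sodium, moved in both directions. Of 13 models, 3 were called higher and 2 lower in npq4, 3 higher and 2 lower in 4A+, and 3 higher and 4 lower in cc3491, and the list medians were -0.06, 0.01 and 0.04. Over all models 0.676% were called higher and 1.2% lower in npq4, 1.02% and 2.24% in 4A+, and 1.47% and 1.87% in cc3491. By the mean over the 3 strains the 2 highest were SLT1, a sodium and sulfate carrier, at 4.99 ± 0.29 in npq4, 4.55 ± 0.32 in 4A+ and 3.05 ± 0.79 in cc3491, and AOT2, named as an amino acid transporter, at 2.51 ± 0.45, 1.85 ± 0.23 and 2.89 ± 0.12. The 2 lowest by the same mean were phosphate carriers. PTB2 was called lower in all 3 strains, at -3.90 ± 0.04 in npq4, -1.004 ± 0.185 in 4A+ and -3.18 ± 0.46 in cc3491. In 4A+ 3 of 3 of its probes had no starved signal well above background, so the size of the fall there was not measured. PTA3 (model 183357, PTB3 in the sulfur table) averaged -4.61 ± 0.25 in npq4, -0.80 ± 0.55 in 4A+ and -1.72 ± 2.32 in cc3491 and was called in none of them. SLT3, named here after its values were seen, was called lower in all 3 strains, at -1.56 ± 0.03 in npq4, -1.52 ± 0.27 in 4A+ and -2.57 ± 0.10 in cc3491. It had the lowest carrier mean in 4A+, where 2 of 3 of its probes had no starved signal well above background.

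**Figure D5:**
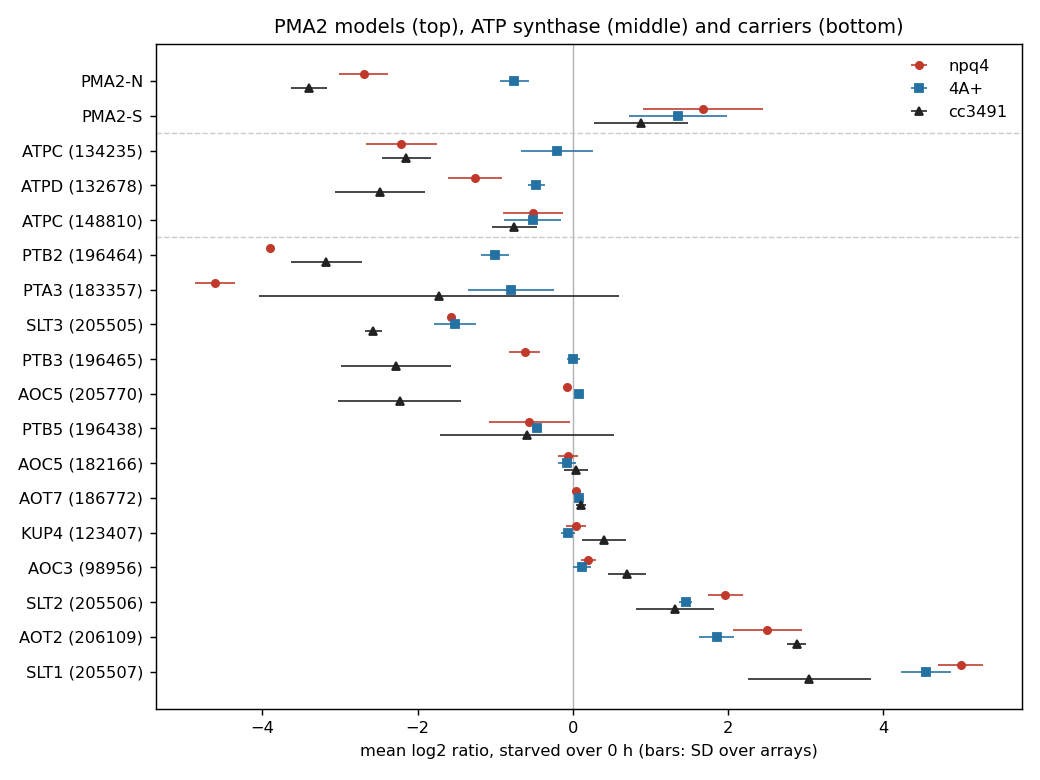
Mean log2 ratio of starved over 0 h RNA (x axis, bars are the SD over 3 npq4 arrays or 4 arrays of 4A+ or cc3491) for the 2 models named PMA2, 3 ATP synthase models and 13 carriers, the others named by symbol and model number. PMA2-N averages -2.70 in npq4, -0.75 in 4A+ and -3.40 in cc3491, and PMA2-S averages 1.68, 1.36 and 0.88 in the same strains.

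The 5 models whose ratios ran most like PMA2-N over the 15 arrays, of 11037 with at least 2 tested probes, were FAP71 (29687, Pearson's r = 0.985), 152423 (0.983), 141947 (0.982), HRP3 (127246, 0.982) and 192563 (0.981). FAP71, named as a flagellar associated protein, had means of -1.38 in npq4, -0.89 in 4A+ and -1.53 in cc3491. These points share the 0 h RNA of each strain, and the cc125 arrays lie apart from the rest. Over the 11 arrays without cc125 the nearest were 148918 (0.990), 195621 (0.988), 182023 (0.970), 189615 (0.969) and 95000 (0.968), and none of the first 5 was among them. Of these, model 95000 was the most like PMA2-N in size as well, at -2.46 in npq4, -0.62 in 4A+ and -2.85 in cc3491.

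For PMA2-S the nearest models over 15 arrays were TEF13 (185990, Pearson's r = 0.961), 196521 (0.940), 190597 (0.937), 186823 (0.936) and 205751 (0.931). Over the 11 arrays without cc125 they were 150242 (0.896), 132861 (0.888), 205751 (0.883), 185990 (0.868) and 191597 (0.867), so that TEF13 and 205751 stood in both lists. TEF13 had means of 3.88 in npq4, 3.37 in 4A+ and 2.96 in cc3491. The correlations describe these arrays and say nothing of a shared control.

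The genes next to the 2 loci in RefSeq order had smaller ratios. Of the neighbours of PMA2-N with tested probes, 168196 lay between -0.20 and 0.00, 168198 between -0.17 and 0.49, and 127247 between -0.18 and 0.10 in npq4, 4A+ and cc3491. Beside PMA2-S, model 152709 averaged 0.00 in npq4, -1.23 in 4A+ and -0.38 in cc3491, and 152707 and 178228 stayed within 0.10 of 0.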

How the data were processed

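RNA of 15 arrays of the sulfur series was analysed from the scanner files. Per the labels, Cy3 (green) is 0 h and Cy5 (red) starved RNA, and Agilent Feature Extraction 10.7.3.1 made the files. The authors deposited intensity values per spot and the software's log10 ratio, which the series table repeats without a difference. The median intensity was background-corrected here with normexp (offset 50, its parameters estimated from spots that carried no outlier mark and whose net signal exceeded -100), and log2 ratios were loess-normalized within each array (limma 3.58.1, R 4.3.3). Levels per channel came from Aquantile scaling. Of 43687 probes, 32076 passed the filter (13465 models, each the mean of its tested probes). One coefficient per strain was fitted over the 15 arrays with lmFit and eBayes, with Holm adjustment over all tested probes or models at 0.05 and a 2-fold limit, and a slope per 24 h with strain fixed and no fold limit. The script was tested on simulated data. Named genes were every PMA2 probe, other pumps with a symbol, the 5 most correlated models, and the 2 highest and 2 lowest carriers and ATP synthase models (all 3 of the latter). Members and lists were chosen with earlier results of these data known. PMA2-N is transcript model 182602 and PMA2-S is 152708. Symbols come from the study's tables, whose fold changes were not used. Arrays of a strain are not known to be separate cultures, and their number limits the precision. Alternatives were background correction, normalization, the probe filter, adjustment, leaving out each array, and a time block, with the sign of cc125, levels on other scalings and 2 combined choices added after seeing the data. Probe sequences were not used here.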

Additional observations from a re-analysis of the deposited data

Results flagged for a closer look

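On 3 of 54 groups of 4 arrays a single array lay far from the other 3, and chance gives this in about 5% of groups. The ratio of probe 2 of PMA2-N in cc3491 was -3.39 at 96 h, against -3.07 to -3.04 on the other arrays. The ratio of probe 3 of PMA2-N on the arrays labelled cc125 was 2.29 at 48 h, against 1.68 to 1.76. The starved level of probe 3 of PMA2-S in 4A+ was 6.18 at 72 h, against 5.94 to 5.97, all 4 not well above background.

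After loess both model means had the opposite sign on every array labelled cc125 to that on every array of npq4, 4A+ and cc3491. The unscaled signals of probes 1 and 2 of PMA2-S did not keep this on the cc125 array of 96 h and the cc3491 array of 48 h. For PMA2-N the mean log2 ratio of cc125 was 4.65 above npq4, 2.70 above 4A+ and 5.35 above cc3491. With the sign of cc125 turned, the differences become 0.75, -1.19 and 1.45. For PMA2-S cc125 differed by -3.14 from npq4, by -2.82 from 4A+ and by -2.35 from cc3491, and with the sign turned by -0.21, 0.11 and 0.58. These differences were not tested.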

How the results depend on the processing

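Of 93 values of the 2 PMA2 models under alternatives that kept all arrays, 73 kept direction and side of the threshold (or stayed within 1 SD), as did all 74 that left out 1 array. Causes of the others were not tested. For PMA2-N in npq4 (-2.70) the mean became -3.31 with offset 0, -2.12 with normexp on all spots and -3.54 with the scanner's ratio. In 4A+ (-0.75) it became -1.35 with offset 0, -1.17 with median centring, -2.00 with the scanner's ratio, -1.81 with probe 1 alone (the only probe above background in both channels of all 15 arrays) and -2.97 with probe 1 and median centring together. In cc3491 (-3.40) probe 1 alone gave -2.90. The npq4 minus 4A+ difference (-1.94) became -1.41 with normexp on all spots, -1.47 with median centring, -1.54 with the scanner's ratio, -1.07 with probe 1 and -0.027 with probe 1 and median centring. The slope of PMA2-N became -0.088 with normexp on all spots. With the sign of cc125 turned, PMA2-N read -1.95 and PMA2-S 1.46. With Benjamini-Hochberg adjustment PMA2-S was called at 1.68 in npq4, 1.36 in 4A+ and -1.46 in cc125.

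Leaving out each array, PMA2-N ranged from -2.81 to -2.51 in npq4, -0.84 to -0.70 in 4A+, -3.49 to -3.32 in cc3491 and 1.78 to 2.01 in cc125, its npq4 minus 4A+ difference from -2.05 to -1.76 and its slope from 0.01 to 0.08. For PMA2-S the ranges were 1.42 to 2.12 in npq4, 1.05 to 1.51 in 4A+, 0.72 to 1.18 in cc3491, -1.67 to -1.30 in cc125, 0.07 to 0.77 for npq4 minus 4A+ and -0.23 to -0.03 for the slope. With the time point as a replicate block, npq4 minus 4A+ was -1.93 for PMA2-N and 0.27 for PMA2-S. The deviations of npq4 and 4A+ arrays of the same time correlated at 0.17, -0.05 and 0.05 at 24, 48 and 96 h, so the arrays share only a time.

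Called probes numbered 483 in npq4, 906 in 4A+, 1063 in cc3491, 868 in cc125 and 241 for npq4 minus 4A+. With Benjamini-Hochberg adjustment they were 2911, 3205, 3692, 3738 and 1510. Normexp on all spots gave 112 in npq4 and 159 for npq4 minus 4A+. Offset 0 gave 1790 in 4A+ and 1370 in cc125. Median centring gave 300 in npq4 and 1432 in cc125. The scanner's ratio gave 753 in npq4, 2318 in 4A+ and 1552 in cc125. The 7566 probes above background in both channels of all arrays gave 434 in cc3491. Dim starved channels limit 4A+ most: 2 of 3 probes of PMA2-N have no measured starved level there.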
